A study of Mus musculus with 6 samples.

Results

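The genes described here encode collagens, laminins and integrins, with fibronectin (*Fn1*), the nidogens (*Nid1*, *Nid2*), *Sparc* and perlecan (*Hspg2*). They were selected by name only, as the gene names of the array that begin with COL, LAM or ITG followed by a chain designation, as in *Col4a1*, *Lamb3* or *Itgav*, plus those 5 names. The selection gave 84 gene names of 30774 on the array, with 183 of its 45281 probes. A probe was tested when its detection score, which compares its signal with the negative controls of the array, was above 0.99 on 3 or more of the 6 arrays. This left 51 probes of 34 genes, among 14621 tested probes in all.

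The cells were mouse embryonic stem (ES) cells of strain 129/SvEv in which *Dicer1* and the endogenous *Ago2* were deleted and a myc-tagged Ago2 was expressed from a CAG promoter, here called *Dicer1*-null ES cells. Without Dicer1 they make no mature miRNAs, so that a single miRNA can be put back. Such lines were picked as single colonies after Cre deletion, and the number of clones behind the 6 arrays is not given in the sources used here. Both groups grew without feeders in serum and LIF, and were transfected with 300 pmol of a miRNA mimic and 1 µg of the plasmid pEGFP-1. One group of 3 arrays received miR-294, and the other group of 3 arrays received cel-239b, a *C. elegans* miRNA used as the control. GFP-positive cells were sorted 24 hr later, and total RNA was hybridised to Illumina mouse arrays. The transfections were made in triplicate, and the *p*-values measure only the spread between these arrays, which may be technical. The design asks how transcript levels differ once miR-294 is present.

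Animal cells are anchored to sheets and networks of secreted protein, the extracellular matrix. Basement membranes, the thin sheets on which epithelia rest, are built from a laminin network and a type IV collagen network that nidogens and perlecan join. Laminins are trimers of an alpha, a beta and a gamma chain, and collagens are trimers of alpha chains. Integrins are cell surface dimers of an alpha and a beta chain that bind matrix proteins outside and the actin or keratin cytoskeleton inside. In the early mouse embryo the inner cell mass and the extraembryonic endoderm lay down the first basement membranes, and ES cells make several of their components in culture.

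The miRNA that was added belongs to the miR-290 to miR-295 cluster of ES cells. Its mature form is shown because bases 2 to 8, the seed given in capitals, are the part that pairs with target transcripts. The RefSeq annotation of GRCm38.p6 places it at chr7:3220691-3220712 on the plus strand, and the same seed is carried by miR-291a-3p and miR-295-3p of the cluster and by 5 of the 1679 mature miRNAs in that annotation in all.
miR-294-3p: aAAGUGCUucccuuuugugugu
miR-291a-3p: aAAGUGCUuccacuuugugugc
miR-295-3p: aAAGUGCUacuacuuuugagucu

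More of these probes fell than rose with miR-294. Of the 51 tested probes, 17 (33.3%) fell and 8 (15.7%) rose at a limma adjusted *p* below 0.05, which is the meaning of fell and rose throughout. Over all 14621 tested probes, 16.3% fell and 16% rose. The 17 probes that fell belonged to 13 genes and the 8 that rose to 8 genes, and *Itgb1bp1* is in both counts because 2 of its probes moved in opposite directions. The median log2 difference, always given as miR-294 minus cel-239b, was -0.11 over the 51 probes and 0.01 over all tested probes. At the stricter cut-off used in the study, a *B*-statistic (log odds of a difference) above 5, 1 of the 51 probes was higher, that of *Col9a2*, and 0 were lower by limma. Over all tested probes, 0.677% were higher and 0.793% were lower at that cut-off. In the cel-239b group no array detected the *Col9a2* probe, which met the filter only through its 3 miR-294 arrays, and with detection required on all 6 arrays 0 of 47 probes were higher past the cut-off by limma. With that filter 17 of the 47 fell (36.2%) and 6 rose (12.8%) at an adjusted *p* below 0.05, against 17% and 16.9% of all 13111 probes then tested. At an unadjusted *p* below 0.05 in the limma fit of the 51, 20 were lower and 9 higher, against 21.6% and 22.7% of all tested probes. With a variance-stabilizing transformation 2 were lower past the *B*-statistic and 0 were higher, against 1.89% and 1.26% of all tested probes. The 3 miR-294 arrays lay wholly above the 3 cel-239b arrays for 11 probes and wholly below them for 20, against 24.3% and 23.6% of all tested probes. With 1 array left out at a time, 24.5% to 37.3% of the tested probes of these genes fell, against 11.1% to 15.9% of all tested probes. The number that rose was 3 without miR-294 array 1, 5 without any of the other arrays but cel-239b array 1, and 8 without that array, while 10.1% to 16.9% of all tested probes rose in these fits. With 3 arrays against 3, the smallest two-sided *p* of an exact permutation test for a single probe is 0.1, so only the model fitted across all probes gives lower values.

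**Figure D1:**
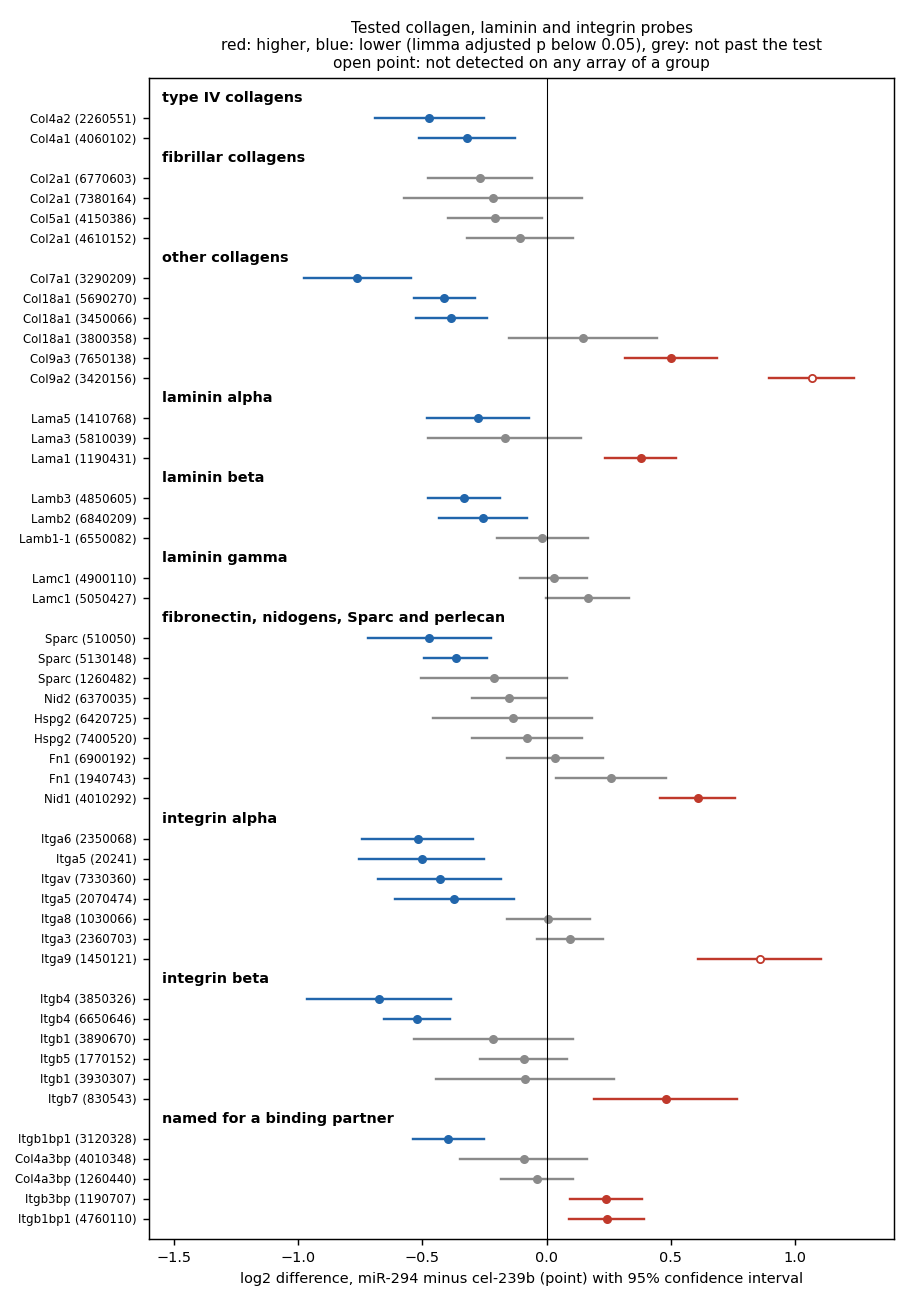
Log2 difference between miR-294 and cel-239b (horizontal axis, miR-294 minus cel-239b) for 47 of the 51 tested probes, in family order, with 95% confidence intervals. Red probes rose (8), blue probes fell (17) and grey probes did not pass the limma test. Open points mark *Col9a2* and *Itga9*, which were not detected on any cel-239b array, so that their plotted differences rest on background signal there.

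The arrays differed little as a whole. Their median signal was between 62.2 and 72.4, between 13855 and 14920 probes were detected on each, and between 49 and 55 of these were probes of the 84 genes. Correlations of the normalised log2 signals were between 0.9948 and 0.9971 within groups and between 0.983 and 0.9882 across groups. All 12 ES cell marker genes on the array, *Pou5f1*, *Nanog* and *Sox2* among them, were tested. Of their 19 tested probes, 5 were higher (26.3%) and 1 lower (5.26%), against 16% and 16.3% of all tested probes. Summed normalised signals are given over every probe of a marker list on the array, tested or not, so that they include background signal. For the 21 ES cell marker probes the sum was 132300 to 135400 with cel-239b and 139400 to 141400 with miR-294. Markers of other cells that such cultures can hold were mostly not detected. Of 16 extraembryonic endoderm markers, 3 were tested. *Amn* fell (-1.53), while both *Sox7* probes (0.73 and 0.56) and both *Dab2* probes rose, the latter without detection on any cel-239b array. *Gata4*, *Gata6* and *Sox17* did not pass detection. Over all 27 probes of this list, 5 of them tested, the summed signal was 1259 to 1356 with cel-239b and 1218 to 1232 with miR-294. Of 9 trophoblast markers, 3 were tested, *Elf5* and *Krt7* not among them, and *Cdx2* (0.56) and *Eomes* (0.64) rose by 1 probe each of 4 probes in all (limma adjusted *p* = 0.00057 and 0.00277). Over all 14 probes of this list, 4 of them tested, the summed signal was 558.9 to 620.7 with cel-239b and 697 to 731.8 with miR-294. Of 11 fibroblast markers, 2 were tested, *Pdgfrb* and *Postn* not among them, and of their 2 probes that of *Thy1* passed the test as higher, though no cel-239b array detected it and it was tested only through the miR-294 arrays. Over all 27 probes of this list, 2 of them tested, the summed signal was 813.7 to 856.2 with cel-239b and 881.3 to 893.5 with miR-294. The part of these markers in the changes below was not tested, and fewer cells of a type and less RNA per cell cannot be told apart in such bulk samples.

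Most collagen genes of the array were not detected in these cells. Of 40 collagen genes, 8 had a tested probe. Of their 12 tested probes, 5 fell (41.7%) and 2 rose (16.7%), against 16.3% and 16% of all tested probes. Among the fibrillar collagens, which form the fibres of skin, bone and cartilage, 2 of 11 genes were tested, *Col2a1* and *Col5a1*. *Col1a1*, *Col1a2* and *Col3a1*, the main collagens of fibroblasts, were not above the detection score on any array. None of the 4 fibrillar collagen probes passed the limma test. At an unadjusted *p* below 0.05 in that fit, 2 were lower and 0 higher, against 21.6% and 22.7% of all tested probes. Their log2 differences were all negative, from -0.27 to -0.11. The *Col5a1* probe, the brightest of this family, read 7.81, 7.96 and 7.68 on cel-239b arrays 1 to 3 and 7.56, 7.63 and 7.63 on miR-294 arrays 1 to 3, in log2 units as in all the values that follow. Its groups did not overlap, and its difference of -0.21 ± 0.08 (standard error, here and after each difference) had a limma adjusted *p* of 0.0891. With 1 array left out at a time, its limma adjusted *p* ran from 0.0456 to 0.23, and it passed only without cel-239b array 3. Under the other alternatives it was 0.0727 to 0.188.

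Both type IV collagen chains that were detected, *Col4a1* and *Col4a2*, fell. These are the most widespread chains of the basement membrane network, and they join in 1 trimer. *Col4a3*, *Col4a4*, *Col4a5* and *Col4a6*, whose trimers are found in kidney, testis and a few other sites, were not detected on any array. *Col4a1* read 10.05, 10.18 and 10.01 with cel-239b and 9.76, 9.63 and 9.88 with miR-294, and *Col4a2* read 9.10, 9.41 and 9.30 with cel-239b against 8.78, 8.71 and 8.90 with miR-294. In both genes every miR-294 array lay below every cel-239b array. The log2 difference was -0.32 ± 0.08 for *Col4a1* (1.25-fold lower, limma adjusted *p* = 0.0236) and -0.47 ± 0.09 for *Col4a2* (1.39-fold lower, adjusted *p* = 0.00903). The call of *Col4a1* was lost without cel-239b array 2, without miR-294 array 1 and without miR-294 array 2, with differences between -0.38 and -0.26 and adjusted *p* up to 0.0746 over all arrays left out in turn, and also without a detection filter (0.0568) and with the replicate block (0.058). *Col4a2* kept its call whichever array was left out. The study lists *Col4a1*, *Col4a2*, *Col18a1*, *Itga5* and *Itgb4* among predicted targets that it drew from these same arrays, so that list is no independent evidence of their direction.

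*Col4a1* and *Col4a2* are neighbours on opposite strands whose annotated starts lie close together. Their RefSeq windows, from 250 bases before to 50 bases after the annotated start, are shown because the pair moved in the same direction. The window of *Col4a1* is chr8:11312777-11313076 on the minus strand of GRCm38.p6 and that of *Col4a2* is chr8:11312555-11312854 on the plus strand. The annotated starts lie 21 bases apart, at 11312826 for *Col4a1* and 11312805 for *Col4a2*, so that in this annotation the 5′ ends of the genes overlap. The 78 bases in capitals, chr8:11312777-11312854, are in both windows, read on opposite strands. They hold the 50 bases after each start and the bases just before it. Both sequences run 5′ to 3′ along their own gene.
Col4a1: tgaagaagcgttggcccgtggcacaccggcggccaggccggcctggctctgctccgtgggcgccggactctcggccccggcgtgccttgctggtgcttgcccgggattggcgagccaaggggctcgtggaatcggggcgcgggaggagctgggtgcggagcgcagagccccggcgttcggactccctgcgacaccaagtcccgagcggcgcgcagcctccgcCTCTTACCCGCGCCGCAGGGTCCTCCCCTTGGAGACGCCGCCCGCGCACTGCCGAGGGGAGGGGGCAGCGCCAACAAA
Col4a2: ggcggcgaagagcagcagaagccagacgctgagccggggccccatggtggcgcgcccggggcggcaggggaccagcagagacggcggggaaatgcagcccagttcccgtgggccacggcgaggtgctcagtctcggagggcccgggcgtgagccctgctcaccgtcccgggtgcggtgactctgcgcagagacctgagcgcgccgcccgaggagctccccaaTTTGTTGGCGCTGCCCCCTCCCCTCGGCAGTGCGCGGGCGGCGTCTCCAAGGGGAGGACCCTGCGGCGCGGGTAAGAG

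The windows have a GC content of 74% (*Col4a1*) and 73.7% (*Col4a2*), against a median of 52.7% over all 32851 promoter windows of the annotation. Letters of 4 motifs were searched on both strands. The GC box GGGCGG occurs 1 time in the *Col4a1* window and 3 times in the *Col4a2* window, and a CCAAT box occurs 1 time in each. TATAAA and the E-box CACGTG occur in neither. Of all windows, 35.7% hold GGGCGG, 37.4% CCAAT, 13.6% TATAAA and 7.15% CACGTG. Among the 34 tested genes, 24 had a window. GGGCGG was found in 7 of 10 genes that fell, 2 of 5 that rose and 7 of 8 that did not pass the test, leaving out *Itgb1bp1*. CACGTG and TATAAA were found in none of these 23 windows. No factor binding was measured here, and the matches describe letters only.

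Among the other 23 collagen genes, probes of *Col7a1* and *Col18a1* fell and probes of *Col9a2* and *Col9a3* rose. *Col7a1* encodes the collagen of anchoring fibrils, which tie the epidermal basement membrane to the dermis. It read 8.24, 8.44 and 8.48 with cel-239b and 7.51, 7.75 and 7.62 with miR-294. The groups were well apart, with a difference of -0.76 ± 0.09 (1.7-fold lower, limma adjusted *p* = 0.00126), the largest fall of the 51 probes.

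*Col18a1* encodes a basement membrane collagen whose end fragment is endostatin, and 2 of its 3 tested probes fell. The first probe (5690270) read 13.56, 13.60 and 13.52 with cel-239b against 13.13, 13.16 and 13.15 with miR-294, and the second (3450066) 9.69, 9.83 and 9.73 with cel-239b against 9.32, 9.37 and 9.41 with miR-294. In both, the 3 miR-294 arrays lay below the 3 cel-239b arrays, and the replicates of a group differed little beside the gap between groups. The differences were -0.41 ± 0.05 (adjusted *p* = 0.00162, limma) and -0.38 ± 0.06 (adjusted *p* = 0.00381). The third probe (3800358), near the background, read 6.13, 5.76 and 5.71 with cel-239b against 5.95, 6.18 and 5.91 with miR-294 and did not pass the test (difference 0.15 ± 0.13, adjusted *p* = 0.413). It was detected on 2 of 3 cel-239b arrays and all 3 miR-294 arrays.

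*Col9a2* and *Col9a3* rose. They encode chains of type IX collagen, which sits on the surface of cartilage fibrils, and the chain that completes the trimer, *Col9a1*, was not detected on any array. *Col9a3* read 9.61, 9.68 and 9.74 with cel-239b and 10.03, 10.27 and 10.22 with miR-294. Its groups did not overlap, and the difference was 0.50 ± 0.08 (1.42-fold higher, limma adjusted *p* = 0.00357). The *Col9a2* probe read 5.57, 5.38 and 5.51 with cel-239b against 6.64, 6.50 and 6.52 with miR-294. It was not detected on any cel-239b array, so its level there is only a bound, and it was tested only because all 3 miR-294 arrays detected it. Set against the lowest signal above the detection score on each cel-239b array, the mean of the miR-294 arrays was at least 1.77-fold higher on the background-corrected, normalised scale. This bound holds for that scale only, since the fitted log2 difference was 0.63 without background correction and 0.70 with an offset of 50. The limma adjusted *p* of 0.000155 belongs to the fitted difference from undetected signal and not to this bound. With a miR-294 array left out the probe no longer met the detection filter. The deposited signals before background correction were 88.9, 85.1 and 100.5 with cel-239b and 132.7, 133.4 and 137.8 with miR-294. The remaining 19 genes in this group, with *Col6a1*, *Col6a2* and *Col6a3* among them, had no tested probe.

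**Figure D2:**
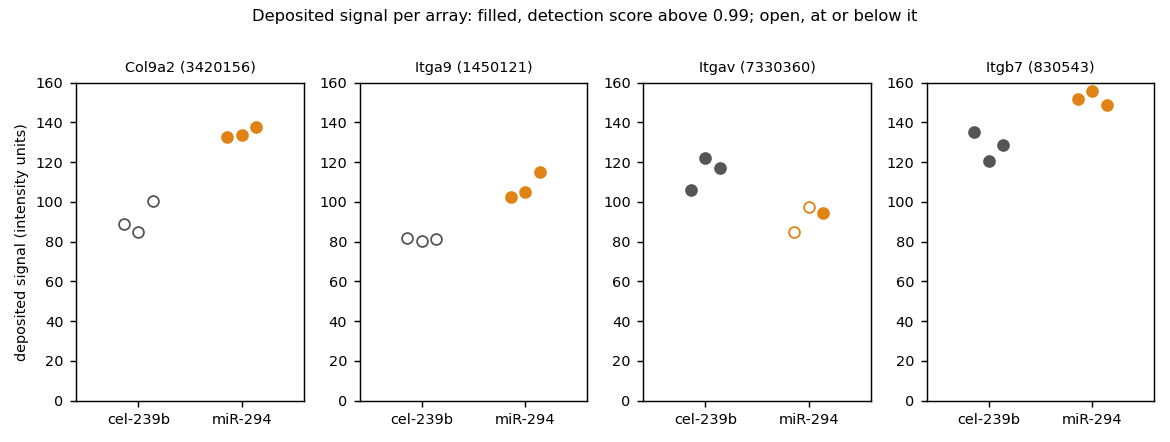
Deposited signal (vertical axis, intensity units from 0) on each array for 4 probes near the background, *Col9a2*, *Itga9*, *Itgav* and *Itgb7*; filled points were above a detection score of 0.99. The 3 cel-239b points of *Col9a2* (at most 100.5) and *Itga9* (at most 82) are open and lie below the miR-294 points.

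Laminin genes moved in both directions. Of 11 laminin genes, 8 were tested with 12 probes, of which 3 fell (25%) and 1 rose (8.33%), against 16.3% and 16% of all tested probes, and the median log2 difference was 0.00. Among the alpha chains, which carry the cell-binding domains, *Lama1* rose. This chain forms laminin-111, a laminin of the early embryo. It read 8.91, 8.82 and 8.79 with cel-239b and 9.16, 9.21 and 9.28 with miR-294, with no overlap, and the difference was 0.38 ± 0.06 (1.30-fold higher, limma adjusted *p* = 0.00395). Its call held whichever array was left out.

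*Lama5*, the alpha chain of laminin-511 and a major laminin of later epithelia, read 9.64, 9.90 and 9.66 with cel-239b and 9.35, 9.50 and 9.52 with miR-294. Every miR-294 array was lower, but the gap between the groups was smaller than the range of the cel-239b arrays. The difference was -0.28 ± 0.09 (1.21-fold lower, limma adjusted *p* = 0.0491). The call was lost in 5 of the 6 fits that left out an array, the exception being cel-239b array 1, with adjusted *p* up to 0.135, and also with median scaling, detection on at least 1 array and no detection filter (0.0562 to 0.116). *Lama3*, the alpha chain of laminin-332 in skin, did not pass the test, and *Lama2* and *Lama4* were detected on 1 array each at most.

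Of the 3 beta chains, *Lamb3* and *Lamb2* fell and *Lamb1* (named *Lamb1-1* on the array) did not pass the test. *Lamb3* belongs to laminin-332, the laminin to which epidermal cells attach. It read 7.20, 7.33 and 7.20 with cel-239b and 6.87, 6.95 and 6.91 with miR-294, which do not overlap (difference -0.33 ± 0.06, 1.26-fold lower, limma adjusted *p* = 0.00675). *Lamb2*, a beta chain of kidney and synaptic laminins, read 7.03, 7.14 and 7.05 with cel-239b against 6.70, 6.82 and 6.94 with miR-294. Its groups were apart as well, with a difference of -0.26 ± 0.07 and a limma adjusted *p* of 0.0366. The call of *Lamb2* was lost without cel-239b array 2 or 3 and without miR-294 array 1 or 2, with adjusted *p* up to 0.112, and also with median scaling, the variance-stabilizing transformation, no detection filter and the replicate block (adjusted *p* 0.0502 to 0.0788). *Lamb1* read 6.07, 6.23 and 6.32 with cel-239b against 6.11, 6.22 and 6.22 with miR-294, and the groups overlapped, with a 95% interval of the difference from -0.20 to 0.16.

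Of the gamma chains, *Lamc1*, found in most laminins, did not pass the test by either of its probes. Its brightest probe read 11.18, 11.24 and 11.22 with cel-239b and 11.17, 11.27 and 11.28 with miR-294, and the other read 10.81, 10.98 and 10.90 with cel-239b against 10.99, 11.03 and 11.16 with miR-294. The groups overlapped in the first and not in the second. The 95% intervals of the log2 difference were -0.11 to 0.16 and -0.00 to 0.33 (limma adjusted *p* = 0.742 and 0.119). *Lamc3* was not detected on any array.

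Among the proteins that link or coat these networks, *Nid1* rose and *Sparc* fell. All 5 genes were tested, with 9 probes, of which 2 fell (22.2%) and 1 rose (11.1%), against 16.3% and 16% of all tested probes. Nidogen-1, which bridges laminin and type IV collagen, read 7.80, 7.83 and 7.97 with cel-239b and 8.50, 8.47 and 8.44 with miR-294. The miR-294 arrays were all higher and lay close together, and the difference was 0.61 ± 0.06 (1.53-fold higher, limma adjusted *p* = 0.000784). *Nid2*, the related nidogen, had a single tested probe with a difference of -0.15 that did not pass the test (adjusted *p* = 0.11, limma).

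*Sparc* encodes osteonectin, a collagen-binding protein of basement membranes. Its brightest probe (5130148) read 11.92, 11.97 and 11.99 with cel-239b and 11.61, 11.56 and 11.62 with miR-294, and a second (510050) read 8.87, 8.91 and 9.12 with cel-239b against 8.30, 8.62 and 8.56 with miR-294. Both fell without overlap, with log2 differences of -0.37 ± 0.05 and -0.47 ± 0.11 (limma adjusted *p* = 0.00274 and 0.0141). The third probe (1260482) had a difference of -0.21 and overlapping groups, and cel-239b array 1 read 11.69 while the other 5 arrays read 11.13 to 11.26. Fibronectin, the ligand of integrin alpha 5 beta 1, did not pass the test by either of its 2 probes (differences 0.26 and 0.04). In its brighter probe every miR-294 array lay above every cel-239b array (limma adjusted *p* = 0.0747). Perlecan, a heparan sulfate proteoglycan, did not pass by either probe (-0.14 and -0.08).

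**Figure D3:**
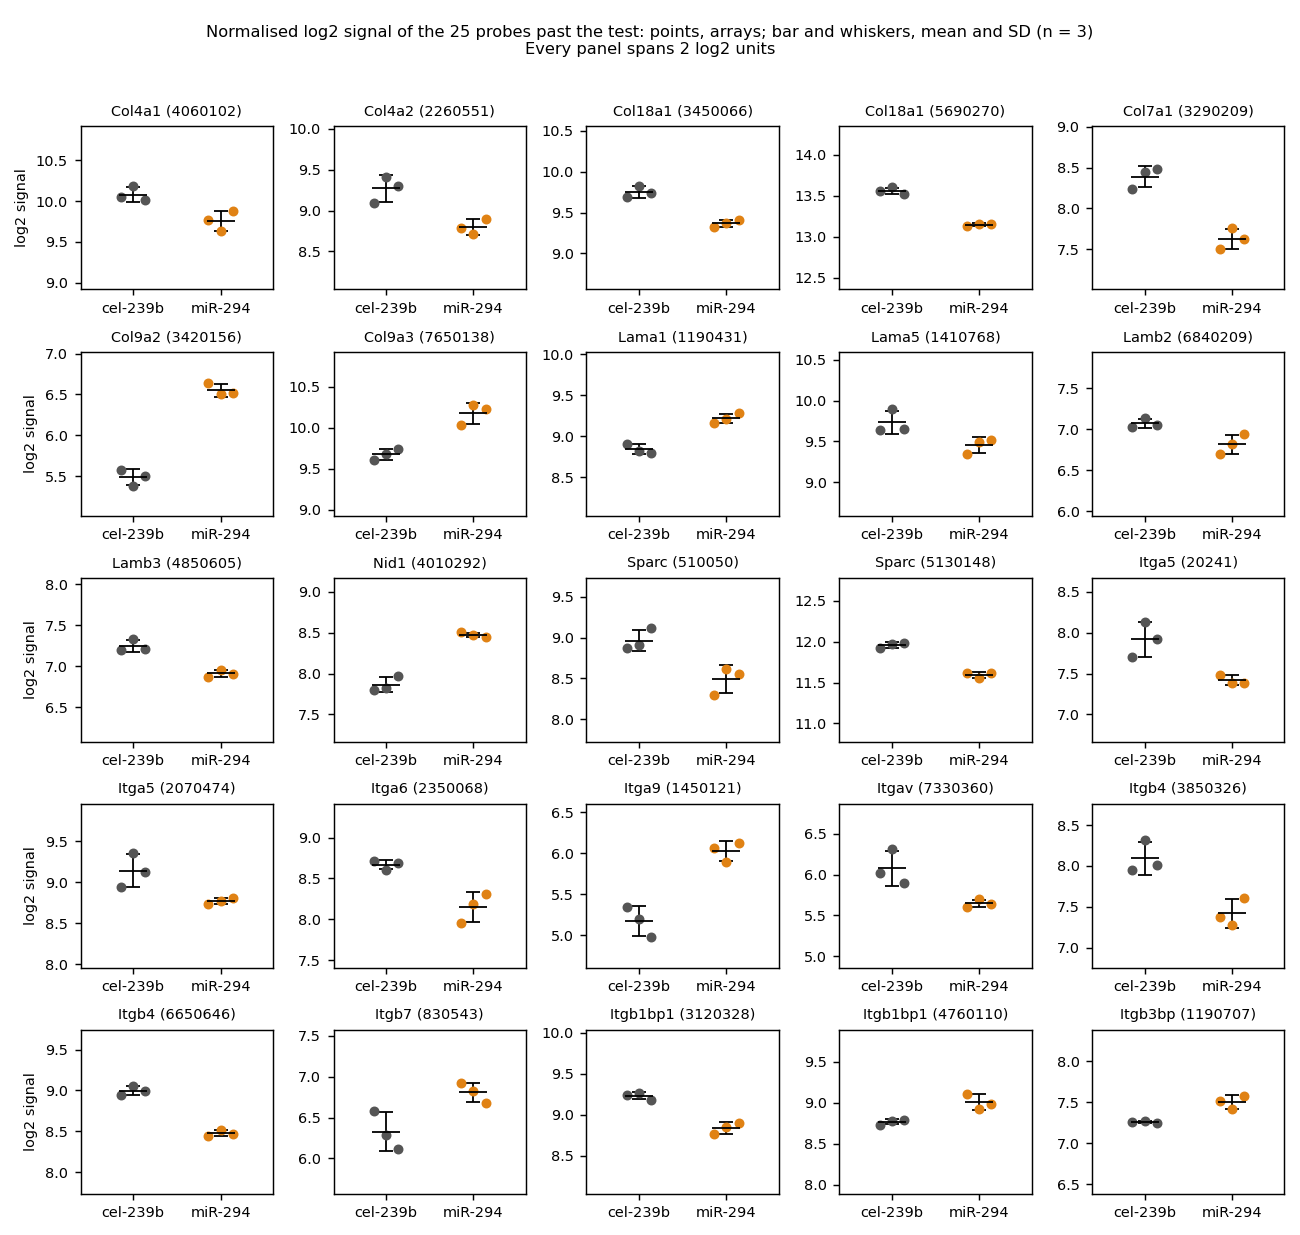
Normalised log2 signal (vertical axis, 2 log2 units in every panel) on each array for the 25 probes that passed the test, with the group mean and SD (n = 3 arrays). In every panel the cel-239b and miR-294 points do not overlap, and the difference of means is -0.76 for *Col7a1* and 0.24 for *Itgb3bp*; the cel-239b points of *Col9a2* and *Itga9* are background signal.

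More integrin probes fell than rose. Of 22 integrin genes, 10 were tested with 13 probes, and 6 probes fell (46.2%) and 2 rose (15.4%), beside the 16.3% and 16% of all tested probes. *Itga6* and *Itgb4* encode the chains of integrin alpha 6 beta 4, the laminin receptor of hemidesmosomes that connects to keratin filaments, and both fell. *Itga6* read 8.71, 8.61 and 8.69 with cel-239b and 7.95, 8.19 and 8.31 with miR-294. Its cel-239b arrays lay close together and all above the miR-294 arrays (difference -0.52 ± 0.09, 1.43-fold lower, limma adjusted *p* = 0.00641).

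For *Itgb4*, probe 6650646 read 8.95, 9.05 and 8.99 with cel-239b and 8.44, 8.51 and 8.47 with miR-294, and probe 3850326 read 7.95, 8.32 and 8.01 with cel-239b against 7.38, 7.27 and 7.61 with miR-294. Both probes separated the groups. Their differences were -0.52 ± 0.06 (limma adjusted *p* = 0.000866) and -0.67 ± 0.12 (adjusted *p* = 0.00642), and both kept their calls whichever array was left out. Alpha 6 also pairs with beta 1, and the 2 *Itgb1* probes, which were close to the background but detected on all 6 arrays, did not pass the test (differences -0.21 and -0.09, with 95% intervals from -0.53 to 0.10 and from -0.44 to 0.27).

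The chains of integrins that bind the RGD sequence of fibronectin and vitronectin were measured by *Itga5*, *Itgav*, *Itga8*, *Itgb5* and *Itgb1*. *Itga5*, the partner of beta 1 in the main fibronectin receptor, fell by both probes. Probe 20241 read 7.70, 8.13 and 7.92 with cel-239b and 7.49, 7.38 and 7.38 with miR-294, and probe 2070474 read 8.94, 9.35 and 9.13 with cel-239b against 8.73, 8.77 and 8.80 with miR-294. Neither overlapped, and in both the cel-239b arrays were the more scattered, with array 2 highest. The differences were -0.50 ± 0.11 and -0.37 ± 0.10 (limma adjusted *p* = 0.0117 and 0.0293), and probe 2070474 lost its call in 5 of 6 fits with an array left out, with adjusted *p* up to 0.0804, the exception being cel-239b array 1, and without a detection filter (0.0779).

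*Itgav*, a partner of several beta chains, had 1 tested probe of 4. It read 6.01, 6.31 and 5.90 with cel-239b and 5.60, 5.70 and 5.64 with miR-294, and it was detected on all 3 cel-239b arrays but on 1 miR-294 array, so that it met the filter through the cel-239b arrays and the size of its change rests partly on background signal. The groups did not overlap, and the limma adjusted *p* was 0.0199. The call was lost without miR-294 array 1 or 3, without a detection filter and with the variance-stabilizing transformation (adjusted *p* up to 0.0738). The partner chain *Itgb5* read 9.52, 9.53 and 9.60 with cel-239b against 9.46, 9.34 and 9.59 with miR-294. Those groups overlapped, and the 95% interval of the difference was -0.27 to 0.08.

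*Itga9* and *Itgb7* rose. Integrin alpha 9 beta 1 binds tenascin and VCAM-1, and beta 7 is known from lymphocytes that home to the gut. *Itga9* read 5.35, 5.20 and 4.98 with cel-239b and 6.07, 5.90 and 6.13 with miR-294. No cel-239b array detected it, and it was tested only because all 3 miR-294 arrays did, so the change is given as a bound of at least 1.23-fold higher on the same scale. The limma adjusted *p* of 0.00142 again belongs to the fitted difference from undetected signal, and without a miR-294 array the probe was not tested. The deposited signals were 82, 80.2 and 81.5 with cel-239b and 102.4, 104.9 and 115.2 with miR-294, beside a median of 62.2 to 72.4 over all probes of an array.

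*Itgb7* read 6.58, 6.28 and 6.12 with cel-239b and 6.92, 6.82 and 6.68 with miR-294. The groups were apart by less than the range of the cel-239b arrays, and the difference was 0.48 ± 0.12 (1.39-fold higher, limma adjusted *p* = 0.0234). Its call was lost without cel-239b array 2 or 3 and without miR-294 array 1 or 2, with adjusted *p* up to 0.072, and without a detection filter (0.0676). Of its usual partners, *Itga4* was not detected by any of 6 probes, and *Itgae* is not among the 84 names. The brightest alpha chain probe, that of the laminin receptor chain *Itga3*, read 9.37, 9.43 and 9.34 with cel-239b against 9.51, 9.43 and 9.49 with miR-294, with overlapping groups and a 95% interval of -0.04 to 0.22. *Itga8*, *Itga1*, *Itga2*, *Itgb3* and the rest of the 22 genes either did not pass the test or were not detected.

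A further 6 names were matched by name but belong to proteins that bind a collagen or an integrin or are named after one. Of these, 3 genes were tested with 5 probes. Leaving all 6 out gives 16 lower (34.8%) and 6 higher (13%) of 46 probes, against 16.3% and 16% of all tested probes. *Itgb1bp1*, which encodes ICAP-1, a regulator that binds the tail of integrin beta 1, was measured by 2 probes that moved in opposite directions. Probe 3120328 read 9.25, 9.27 and 9.18 with cel-239b and 8.76, 8.85 and 8.90 with miR-294, and probe 4760110 read 8.73, 8.78 and 8.79 with cel-239b against 9.11, 8.93 and 8.98 with miR-294. The first fell and the second rose, each without overlap (differences -0.40 ± 0.06 and 0.24 ± 0.07, limma adjusted *p* = 0.00331 and 0.0281). The rise of the second was lost in 5 of 6 fits with an array left out, the exception being miR-294 array 2, and it was also lost with median scaling, with the replicate block and without a detection filter (adjusted *p* up to 0.151).

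*Itgb3bp* encodes a centromere protein that was first described as a binder of integrin beta 3. It read 7.26, 7.28 and 7.25 with cel-239b and 7.51, 7.41 and 7.58 with miR-294, and it rose by 0.24 ± 0.06 (limma adjusted *p* = 0.0236). The call was lost without cel-239b array 2 or 3 and without miR-294 array 1 or 3, with adjusted *p* up to 0.0725, and with median scaling (adjusted *p* = 0.15). *Col4a3bp*, current symbol *Cert1*, encodes a ceramide transfer protein and did not pass the test by either probe.

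Several probes measured the same gene in 12 of the 34 genes. In 9 of these genes all tested probes had the same sign, and in 3, with *Col18a1* and *Itgb1bp1* among them, they did not. With the brightest probe alone for each gene, 13 of the 34 genes fell (38.2%) and 7 rose (20.6%), against 17.9% and 15.6% of all 10613 genes taken by their brightest tested probe. Of the 50 genes without a tested probe, 46 were above the detection score on no array and 4 (*Col11a2*, *Lama2*, *Lama4* and *Itgb4bp*, now *Eif6*) on 1 or 2 arrays. No statement on their response can be made at this signal.

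Genes of 4 related groups were counted in the same fit, in which 16.3% of all tested probes fell and 16% rose. The matrix proteases and their inhibitors, which cut the matrix and control that cutting, had 11 of 18 genes tested with 14 probes, of which 5 fell (35.7%) and 2 rose (14.3%), with a median of -0.22. Both probes that rose were of the inhibitor *Timp1*. Values follow for the enzymes *Mmp9* and *Mmp23* and the urokinase receptor *Plaur*, which gathers proteolysis at the cell surface. *Mmp9*, a gelatinase, read 7.27, 7.68 and 7.39 with cel-239b and 6.25, 6.23 and 6.20 with miR-294 (difference -1.22 ± 0.10, 2.33-fold lower, limma adjusted *p* = 0.000332). *Mmp23* read 8.21, 8.31 and 8.22 with cel-239b against 7.42, 7.18 and 7.22 with miR-294, and *Plaur* read 8.89, 9.04 and 8.93 with cel-239b against 8.14, 8.03 and 8.05 with miR-294. All 3 genes separated the groups by more than the range within either group, and the latter pair, with differences of -0.97 ± 0.08 and -0.88 ± 0.06, was also past a *B*-statistic of 5 (5.37 and 5.75).

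Collagen biosynthesis had 16 of 25 genes tested with 26 probes, of which 4 fell (15.4%) and 1 rose (3.85%), with a median of -0.05. *Loxl1*, a lysyl oxidase that cross-links elastin and collagen, fell (limma adjusted *p* = 0.00214), but 1 of 3 miR-294 arrays did not detect it, so that the size of its change rests partly on background signal. *Serpinh1*, the collagen chaperone HSP47, differed by -0.60 ± 0.06 in its brighter probe (adjusted *p* = 0.000661, limma). *Serpinh1* read 9.90, 10.07 and 9.99 with cel-239b and 9.38, 9.38 and 9.40 with miR-294. The second *Serpinh1* probe did not pass the test (-0.37). *Plod3*, a lysyl hydroxylase of collagen, had a probe that fell (-0.37) and a probe that rose (0.24, adjusted *p* = 0.0484, limma).

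Other matrix proteins and receptors had 17 of 29 genes tested with 23 probes, of which 6 fell (26.1%) and 4 rose (17.4%), with a median of -0.11. Differences were -0.66 ± 0.07 in *Ecm1*, a secreted matrix protein, and -0.44 ± 0.14 in *Efemp2*, the elastic fibre protein fibulin-4 (limma adjusted *p* = 0.00073 and 0.0493). *Sdc1*, a syndecan that carries heparan sulfate, had a dim probe detected on 1 of 3 miR-294 arrays that passed the test (limma adjusted *p* = 0.0299) and a brighter probe, detected on all 6 arrays, that did not (-0.23, adjusted *p* = 0.414). The proteins that connect integrins to actin and to signalling had 22 of 27 genes tested with 27 probes, of which 5 fell (18.5%) and 1 rose (3.7%), with a median of -0.08. *Lims2*, an adaptor of the integrin-linked kinase, rose (adjusted *p* = 0.0338, limma) and was detected on 2 of 3 cel-239b arrays and all 3 miR-294 arrays.

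**Figure D4:**
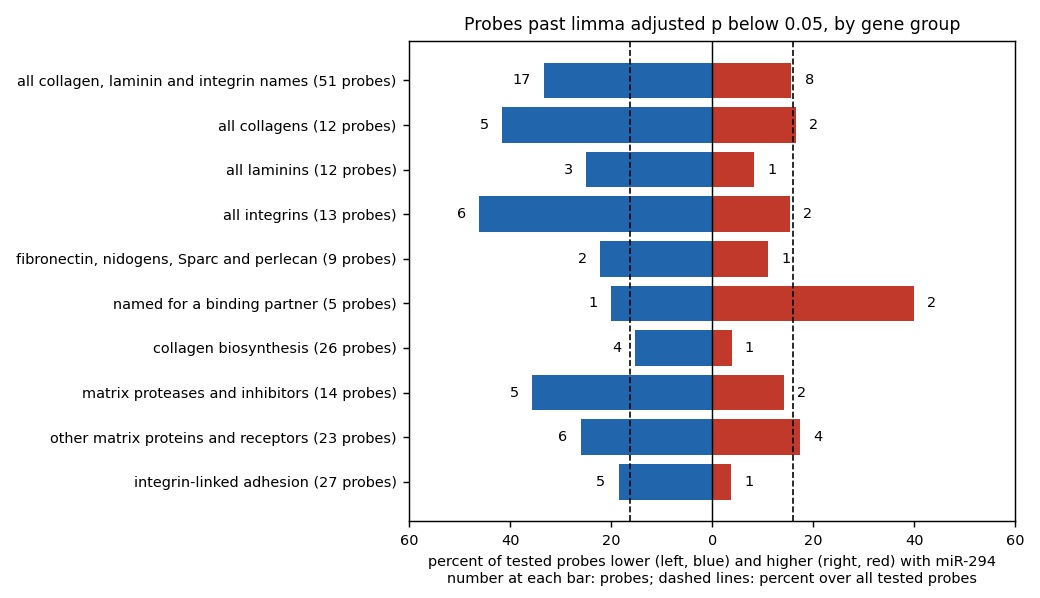
Percent of tested probes that fell (blue, left) and rose (red, right) with miR-294 in each gene group (vertical axis), with the number of probes at each bar; dashed lines mark 16.3% and 16% of all 14621 tested probes. The bars for lower probes reach 46.2% in the integrins and 41.7% in the collagens, and the bars rest on 5 to 51 probes.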

How the data were processed

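The authors deposited signal intensity per probe and array as the mean over beads, exported by GenomeStudio 1.0.6 without normalization, with the spread of its beads as an intensity, how many beads were read (10 to 155, a count not used in the tests) and a detection score, a deposited fraction from 0 to 1. A further 24 columns of minima, maxima, standard deviations and array numbers were not used. The normalization by the array service is not named in the sources used here. In R 4.3.3 with limma 3.58.1, normexp background correction from the detection *p*-values (1 minus the score), an offset of 16, quantile normalization and log2 transformation were applied. The offset shrinks differences of dim probes. The 2 groups were compared by a linear model of limma over all 14621 probes with a detection score above 0.99 on at least 3 arrays, with moderated statistics, 0.01 as the prior share of changed probes and Benjamini-Hochberg adjustment. With 3 arrays in a group, small differences can be missed.

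The genes and gene lists were chosen with earlier results of these data known. Values were given for probes with a *B*-statistic above 5, the 12 largest rises and falls, the brightest probe of each family, the genes on the study's target list and genes whose probes differ in sign or were detected in 1 group only, and for at most 3 genes of each further list. *Lamb2* and the members that did not pass the test were added after their values were seen. Names were matched to RefSeq, where 80 of the 84 were current symbols and 4 were synonyms. Promoter windows and miRNAs are those of RefSeq (GRCm38.p6). The steps were tested on simulated data. Alternatives were no background correction, an offset of 50, cyclic loess, median scaling, a variance-stabilizing transformation, other detection filters, array weights, the replicate number as a block, 1 probe per gene and each array left out in turn. A block for slides could not be fitted because the data name none. Seed matches in transcripts were not analysed here. Not every gene of the lists is reported here.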

Additional observations from a re-analysis of the deposited data

How the results depend on the processing

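None of the 30 named probes changed sign under any alternative that tested it. The 17 lower and 8 higher probes became 15 and 6 with median scaling (all probes 13.5% lower and 10.7% higher). They became 16 and 10 with the variance-stabilizing transformation (17.4% and 18.1%) and 12 and 8 of 183 without a filter (all probes 4.5% and 4.12%). With detection on all 6 arrays 17 fell and 6 rose (17% and 16.9% of all). *Col9a2*, *Itga9* and *Itgav* were not tested there, and 22 of the 25 calls were shared, so the 17 were not all the same probes. The single higher probe past a *B*-statistic of 5 became 2 with median scaling and 0 with the variance-stabilizing transformation, with detection on all 6 arrays and with the replicate block, and 2 probes were lower past it with the variance-stabilizing transformation. Over the fits with an array left out, 12 to 19 probes fell (11.1% to 15.9% of all), 3 to 8 rose (10.1% to 16.9% of all) and 0 to 1 were higher past a *B*-statistic of 5, and without a miR-294 array *Col9a2* and *Itga9* failed the detection filter.

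The correlations of the deviations of same-numbered arrays from their group means were 0.14, -0.08 and 0.14, beside -0.204 to 0.0785 for other pairs. With 3 arrays in a group, such values cannot decide whether the numbers pair the arrays. With the replicate block, 15 probes fell and 7 rose (14.8% and 14.4% of all probes), and 22 of the 25 calls were shared. Calls of *Col4a1*, *Lamb2* and *Itgb1bp1* probe 4760110 were lost there. Without a detection filter, *Col4a1*, *Lama5*, *Lamb2*, *Itga5* probe 2070474, *Itgav*, *Itgb7* and *Itgb1bp1* probe 4760110 were lost. Median scaling lost *Lama5*, *Lamb2*, *Itgb3bp* and *Itgb1bp1* probe 4760110, the variance-stabilizing transformation *Itgav* and *Lamb2*, and detection on at least 1 array *Lama5*. The size of dim changes depended on the scale, and the fitted log2 values of *Col9a2* (0.25 to 1.07) and *Itga9* (0.16 to 0.91) rest on cel-239b signal that was not detected. The cause of these shifts was not tested. Signal over background limits these results, and 132 of 183 probes were not tested.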
